A study of Mus musculus with 8 samples.

Results

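The genes described here are p53 and 9 genes counted among its direct targets, followed in a mouse medulloblastoma line treated with a benzarone derivative. They were chosen by name, as Trp53, Mdm2, Mdm4, Ccng1, Eda2r, Trp53inp1, Phlda3, Zmat3, Aen and Btg2, and all 10 were found among the 55416 gene identifiers of the table. MB21 is a line of cerebellar tumour cells with a Ptch mutation, which leaves the Hedgehog pathway active. It was grown in suspension and held for 5 days in DS-1-38 at 10 uM, or in the DMSO vehicle, and each condition had 4 messenger RNA libraries, called DS38 and DMSO here. All 8 libraries share the Ptch mutant genotype, and the labels give neither the Trp53 status of the line nor whether replicate libraries stem from independent cultures. The p-values therefore reflect how far these libraries differ among themselves, a spread that may be only technical.

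The p53 protein is a transcription factor that is stabilised after DNA damage and other stresses and then raises genes that stop the cell cycle, repair DNA or start cell death. Mdm2 and Mdm4 hold it in check, and since Mdm2 is itself a p53 target the pair forms a feedback loop. Much of the control of p53 acts on the protein, so the Trp53 transcript is not a measure of p53 activity. In mice that carry a Ptch1 mutation, loss of p53 is known to hasten medulloblastoma.

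Library totals ran from 17142397 to 28476019 counts, and the share of counts from the mitochondrial genome was 1.17% to 1.36% in DS38 libraries and 0.785% to 1.04% in DMSO libraries. All 8 granule progenitor and tumour markers were above the filter on low counts. Their summed levels were 1599 to 1678 CPM in DS38 and 1424 to 1491 CPM in DMSO. CPM are the counts scaled to a common library total. Of these 8, 4 were higher and 2 lower in DS38 at an edgeR adjusted p under 0.05, beside 18.8% and 20.7% of all genes tested. The 5 microglia and leukocyte markers were all under the filter, with Cx3cr1 at 0 counts in every library, and summed to 0.0529 to 0.141 CPM in DS38 and 0.0427 to 0.106 CPM in DMSO. Summed levels were 4.097 to 5.09 CPM in DS38 and 2.44 to 3.16 CPM in DMSO for the 6 mesenchyme markers, and 3.44 to 4.39 CPM against 2.09 to 3.28 CPM in the same order for the 4 astrocyte markers. The 4 endothelium markers, of which Cldn5 had no counts, summed to 1.48 to 1.81 CPM in DS38 and 0.782 to 1.75 CPM in DMSO. The 5 oligodendrocyte lineage markers summed to 61.0 to 65.6 CPM in DS38 and 80.5 to 85.3 CPM in DMSO, a list in which Mog was under the filter. The part of the mitochondrial share or of these markers in the results below was not tested. In bulk RNA, fewer cells that express a gene and less of its RNA per cell cannot be told apart.

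The 10 genes did not move as a group. All 10 passed the filter, and 2 of them rose, 1 fell and 7 missed the threshold of an edgeR adjusted p under 0.05, whereas 39.5% of all 15133 genes tested were called in either direction, 18.8% as higher and 20.7% as lower. A count of 3 in 10 lies near that background and is not a result about these genes as a set. Their median log2 fold change was 0.01, against -0.01 over all genes tested. The groups did not overlap in CPM for 4 of the 10, beside 36.1% of all genes tested. What the genes show is a spread of responses, with Eda2r and Trp53inp1 at its ends and Trp53, Mdm2, Mdm4 and Zmat3 close to no change.

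**Figure D1:**
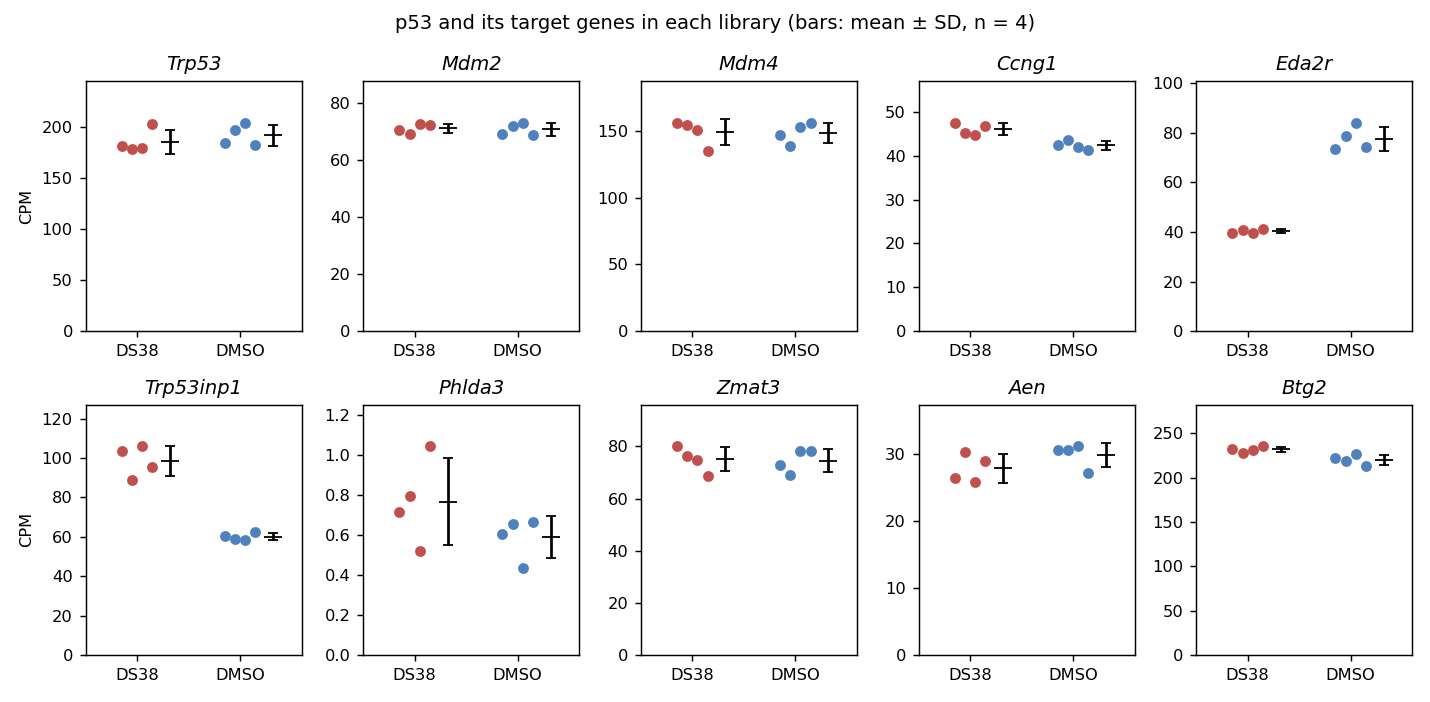
CPM (linear axis from 0) of each of the 10 genes in every library, with DS38 left of DMSO, points for the libraries in the order of their replicate numbers, and the mean ± SD of 4 libraries beside them. Eda2r lies between 39.5 and 41.2 CPM in DS38 libraries, under every DMSO library, and Trp53inp1 between 89.1 and 106 CPM, above every DMSO library.

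The promoters were searched for the sequence p53 binds, since the members are known as its direct targets. RefSeq windows on the build GRCm38.p6, from 250 bases before to 50 bases after a start site, were found for 8 of the 10 genes; Trp53inp1 and Zmat3 had no match. The p53 response element is made of 2 copies of a decamer with up to 13 bases between them, and since the decamer reads alike on both strands a search of 1 strand covered both. Only exact matches to the decamer RRRCWWGYYY were counted, with R for A or G, W for A or T and Y for C or T. Copies that depart from it in any letter were left out, so a window without a match is not shown to lack a p53 site. No member window held an exact full element, which 0.074% of all 27025 genes with a window did. A single decamer was found in the windows of 4 members, Trp53, Mdm2, Ccng1 and Aen, and in those of 9.55% of all genes. These 4 decamers, each on the strand of its gene and in capitals throughout, are shown to let their letters be compared:
Trp53: GGACTTGCCC
Mdm2: GAACTTGCCT
Ccng1: GGGCAAGCCT
Aen: GGGCTTGTCC

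The decamer began 75 bases upstream of the start site in Trp53, 186 bases upstream in Mdm2 and 185 bases upstream in Ccng1. In Aen it lay 10 bases after the first of its start sites and 121 bases upstream of the other, the same decamer being inside both windows. Whole windows are given for Eda2r, the gene with the largest fall, for Mdm2, which hardly differed between the groups, and for Ccng1, which had a small rise, with any decamer in capitals. The Eda2r window is chrX:97377160-97377459 on the minus strand, the Mdm2 window chr10:117710709-117711008 on the minus strand and the Ccng1 window chr11:40755237-40755536 on the minus strand.
Eda2r: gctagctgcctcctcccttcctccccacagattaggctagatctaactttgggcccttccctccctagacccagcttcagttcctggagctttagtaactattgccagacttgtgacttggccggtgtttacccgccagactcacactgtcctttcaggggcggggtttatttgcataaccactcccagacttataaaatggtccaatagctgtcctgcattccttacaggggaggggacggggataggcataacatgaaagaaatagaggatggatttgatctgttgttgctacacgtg
Mdm2: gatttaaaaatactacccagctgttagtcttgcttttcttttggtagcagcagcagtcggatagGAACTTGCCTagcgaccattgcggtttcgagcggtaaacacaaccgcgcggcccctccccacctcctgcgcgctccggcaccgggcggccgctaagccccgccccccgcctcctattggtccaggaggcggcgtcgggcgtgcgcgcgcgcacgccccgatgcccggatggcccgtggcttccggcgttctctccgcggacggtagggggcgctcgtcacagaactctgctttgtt
Ccng1: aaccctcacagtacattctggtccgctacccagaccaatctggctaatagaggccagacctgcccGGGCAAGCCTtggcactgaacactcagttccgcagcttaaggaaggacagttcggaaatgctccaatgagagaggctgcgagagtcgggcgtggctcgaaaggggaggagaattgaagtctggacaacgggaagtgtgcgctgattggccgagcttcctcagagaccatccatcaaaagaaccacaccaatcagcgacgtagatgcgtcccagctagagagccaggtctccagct

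A decamer match is a description of the letters and not a bound site. The Eda2r window had no decamer in capitals, and the Mdm2 and Ccng1 windows had 1 each. The p53-responsive promoter of Mdm2 is known to lie in its first intron, outside the window printed here.

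Trp53 itself (ENSMUSG00000059552), the gene of the transcription factor, differed by less than the spread between libraries. It stood at 181, 179, 179 and 203 CPM in DS38 replicates 1 to 4, against 184, 197, 204 and 182 CPM in DMSO replicates 1 to 4. The groups overlap, and DS38 replicate 4 stands above the other DS38 libraries, within the DMSO range. The means were 186 ± 11.8 CPM in DS38 and 192 ± 10.4 CPM in DMSO (SD, n = 4 each). The log2 fold change was -0.05 ± 0.049 (SE), with a 95% interval of 0.902-fold to 1.04-fold, and did not pass (edgeR adjusted p = 0.468). Without DS38 replicate 4 the log2 fold change was -0.09, again not passing (edgeR adjusted p = 0.136). The counts do not show whether the transcripts carry a Trp53 variant. A processed pseudogene, Trp53-ps, is counted apart, with 97 counts over the 8 libraries beside 32987 for Trp53, and the treatment of reads that match both is not stated.

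Both inhibitors of p53 overlapped fully between the conditions, with narrow intervals around no change. Mdm2 (ENSMUSG00000020184), the ubiquitin ligase gene that marks p53 for degradation, had 70.5, 69.0, 72.5 and 72.2 CPM in DS38 libraries, against 69.1, 71.9, 73.0 and 68.6 CPM in DMSO libraries. No library stands apart. For Mdm2 the log2 fold change was 0.01 ± 0.041 (SE), with a 95% interval of 0.947-fold to 1.07-fold (edgeR adjusted p = 0.911). Of all genes tested, 2.28% had a smaller absolute log2 fold change than Mdm2. Mdm4, whose protein binds the activation domain of p53 without being an active ligase of its own, had 156, 155, 151 and 135 CPM in DS38 libraries, against 147, 139, 153 and 156 CPM in DMSO libraries. The lowest Mdm4 value of all 8 is that of DS38 replicate 4, and the groups overlap. For Mdm4 it was 0.01 ± 0.049 (SE), with a 95% interval of 0.935-fold to 1.08-fold (edgeR adjusted p = 0.938). Both differences lie so near 0 that their sign depends on the libraries and the filter used. The processed pseudogene Mdm4-ps had 227 counts beside 26157 for Mdm4.

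Eda2r (ENSMUSG00000034457), which encodes a receptor of the tumour necrosis factor receptor family for a form of ectodysplasin, fell 1.92-fold. It had 39.7, 40.9, 39.5 and 41.2 CPM in DS38 libraries, against 73.5, 78.8, 84.1 and 74.2 CPM in DMSO libraries. Every DS38 library lies far under the lowest DMSO library, and the DS38 libraries differ little among themselves, with a coefficient of variation of 2.02% in DS38 and 6.34% in DMSO. The log2 fold change was -0.94 ± 0.049 (SE), with a 95% interval from -1.05 to -0.84 (edgeR adjusted p = 4.55e-11). Ordered from the largest fall, Eda2r took place 139 among the 15133 genes tested. Leaving out any library, and each other setting tried, gave a log2 fold change between -0.97 and -0.882.

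Trp53inp1 (ENSMUSG00000028211), a stress-induced nuclear protein gene whose product promotes p53 phosphorylation and autophagy, rose 1.64-fold. Its values were 103, 89.1, 106 and 95.5 CPM in DS38 libraries, against 60.6, 58.9, 58.3 and 62.5 CPM in DMSO libraries. The groups are well apart, and the spread is wider in DS38, with a coefficient of variation of 7.78% in DS38 and 3.14% in DMSO. The log2 fold change was 0.71 ± 0.052 (SE), with a 95% interval from 0.60 to 0.82 (edgeR adjusted p = 5.85e-09). Ordered from the largest rise, Trp53inp1 took place 604 among the genes tested. Over the settings tried, its log2 fold change ran from 0.682 to 0.771.

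**Figure D2:**
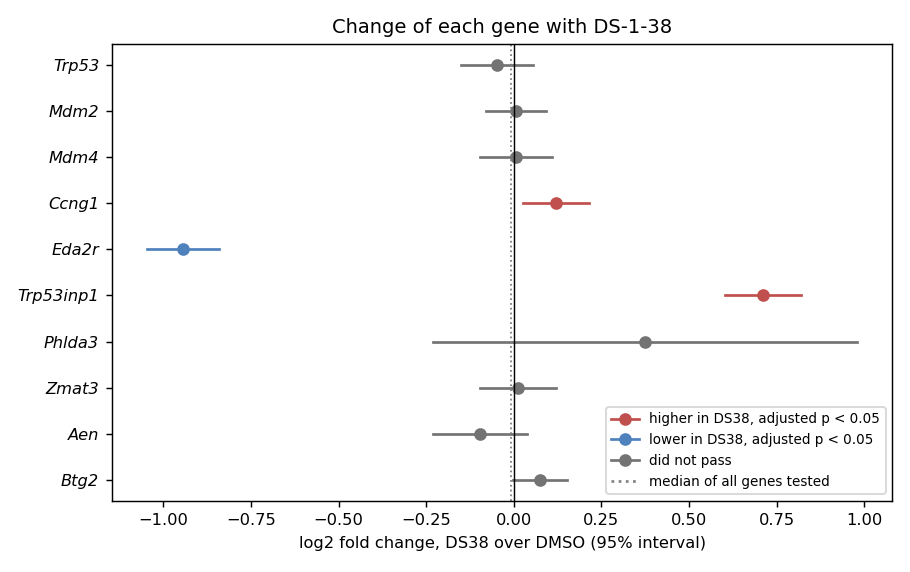
Log2 fold change of DS38 over DMSO (x axis) of the 10 genes (rows), with bars for the 95% interval of each gene taken alone and a dotted line at the median of all genes tested. Eda2r lies at -0.94 and Trp53inp1 at 0.71. The intervals of Trp53, Mdm2, Mdm4, Zmat3, Aen, Btg2 and Phlda3 include 0, that of Btg2 only just, and that of Phlda3 is the widest.

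Ccng1 and Btg2 were slightly higher in every DS38 library than in any DMSO library. Ccng1 (ENSMUSG00000020326), the gene of cyclin G1, which recruits protein phosphatase 2A, had 47.5, 45.1, 44.6 and 46.8 CPM in DS38 libraries, against 42.4, 43.6, 42.0 and 41.2 CPM in DMSO libraries. The groups do not overlap, though the highest DMSO library and the lowest DS38 library are close. Its rise was 1.09-fold (log2 fold change 0.12 ± 0.045 SE, 95% interval from 0.03 to 0.21) and only just passed (edgeR adjusted p = 0.0414). That call was lost in 10 of 16 alternative settings. Among them were the DESeq2 test (adjusted p = 0.0646) and leaving out 1 library. The edgeR adjusted p was then 0.106, 0.0602 and 0.0764 without DS38 replicate 1, 2 and 4, and 0.0651, 0.0804 and 0.102 without DMSO replicate 1, 3 and 4.

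Btg2, which encodes an antiproliferative protein that recruits the messenger RNA deadenylation machinery and marks neural progenitors about to form neurons, had 233, 228, 231 and 235 CPM in DS38 libraries. In DMSO libraries it had 222, 219, 227 and 213 CPM. The groups do not overlap, and the difference is small beside the level. The log2 fold change was 0.08 ± 0.037 (SE), with a 95% interval of 0.999-fold to 1.11-fold, and did not pass (edgeR adjusted p = 0.112). With libraries scaled by their totals alone it passed (log2 fold change 0.136, edgeR adjusted p = 0.00608), a scaling under which the median log2 fold change of all genes tested was 0.05 in place of -0.01. Btg2 is also induced by growth factors as an immediate early gene. The 13 other immediate early genes held 2 rises, 3 falls and 8 genes that missed the threshold, a share called that is near the 39.5% over all genes tested, with a median log2 fold change of -0.09. Of single genes, Fos rose (log2 fold change 0.40), while Ier2 (-0.70), Klf2 (-1.12) and Egr2 (-0.67) fell, with edgeR adjusted p-values of 1.3e-05 for Ier2 to 0.00602 for Egr2. Klf2 and Egr2 were scarce, with 73 and 183 counts over the DS38 libraries, against 155 and 282 counts over the DMSO libraries.

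The other 3 targets overlapped between the groups and did not pass. Zmat3, a zinc finger gene whose product binds RNA and affects splicing, had 80.0, 76.4, 75.0 and 68.8 CPM in DS38 libraries, against 72.7, 69.1, 78.3 and 78.1 CPM in DMSO libraries. Like that of Mdm4, the lowest Zmat3 value belongs to DS38 replicate 4. For Zmat3 the log2 fold change was 0.01 ± 0.052 (SE), with a 95% interval of 0.935-fold to 1.09-fold (edgeR adjusted p = 0.87). Aen, an apoptosis-enhancing nuclease gene, had 26.4, 30.4, 25.9 and 29.1 CPM in DS38 libraries, against 30.6, 30.6, 31.2 and 27.3 CPM in DMSO libraries. DMSO replicate 4 lies under the other 3 DMSO libraries and inside the DS38 range. For Aen the log2 fold change was -0.10 ± 0.064 (SE), with a 95% interval of 0.853-fold to 1.03-fold (edgeR adjusted p = 0.247). Without DMSO replicate 4 it was -0.14 (edgeR adjusted p = 0.0987).

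Phlda3, which encodes a membrane-binding inhibitor of Akt, was the only one of the 10 close to silence. It had 69 counts over the 4 DS38 libraries and 51 counts over the 4 DMSO libraries. Per library these were 0.712, 0.791, 0.519 and 1.04 CPM in DS38, against 0.602, 0.652, 0.435 and 0.663 CPM in DMSO. The log2 fold change of 0.37 ± 0.29 (SE) had a 95% interval from 0.852-fold to 1.97-fold, which holds both no change and the 1.64-fold of Trp53inp1 (edgeR adjusted p = 0.322).

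Levels can be compared between genes only per length, as RPKM, the CPM divided by the deposited gene length in kilobases. Btg2 was the highest at 84.6 ± 1.05 RPKM in DS38 and 80.2 ± 2.13 RPKM in DMSO, followed by Trp53 at 45.9 ± 2.91 and 47.4 ± 2.58 RPKM in the same order. In DS38 the next places went to Trp53inp1 at 15.2, Mdm2 at 14.0, Ccng1 at 13.1, Mdm4 at 10.1, Eda2r at 6.85, Zmat3 at 6.56, Aen at 4.82 and Phlda3 at 0.491 RPKM. In DMSO the order after Trp53 was Mdm2 at 13.9, Eda2r at 13.2, Ccng1 at 12.1, Mdm4 at 10.0, Trp53inp1 at 9.28, Zmat3 at 6.52, Aen at 5.16 and Phlda3 at 0.377 RPKM. Eda2r thus held the seventh place in DS38 and the fourth in DMSO, and Trp53inp1 the third place in DS38 and the seventh in DMSO. Neighbours whose library ranges overlapped were Trp53inp1 with Mdm2 and Eda2r with Zmat3 in DS38, and Mdm2 with Eda2r and Mdm4 with Trp53inp1 in DMSO.

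**Figure D3:**
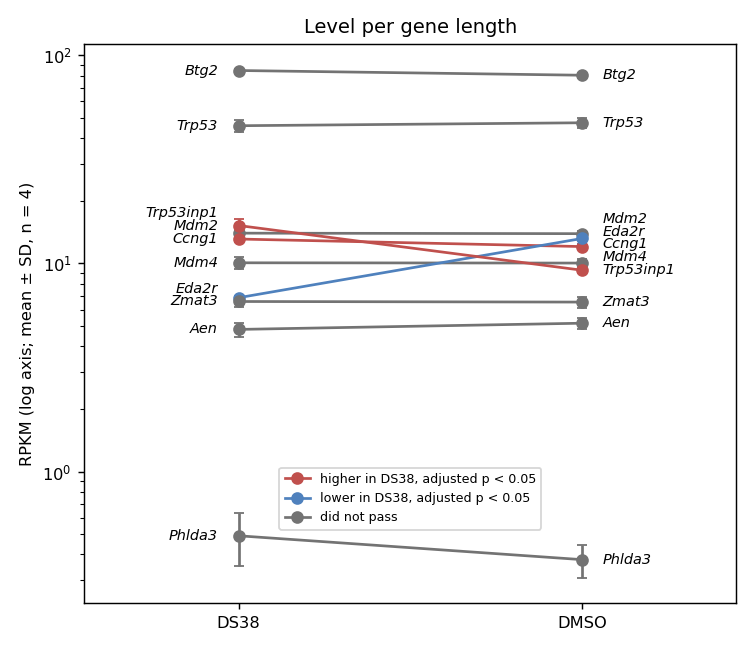
RPKM (log axis) of the 10 genes in DS38 (left) and DMSO (right), as mean ± SD of 4 libraries, with lines joining the values of a gene. Eda2r at 6.85 RPKM in DS38 and 13.2 RPKM in DMSO crosses Trp53inp1 at 15.2 and 9.28 RPKM, and the other lines are nearly level apart from the scarce Phlda3.

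Other p53 targets, 36 genes in 4 role lists, were split between rises and falls. The 33 tested ones comprised 7 rises, 9 falls and 17 genes that did not pass, with a median log2 fold change of -0.04. These counts lie near the background of 18.8% raised and 20.7% lowered over all genes tested and are not a result about the list. By role, against the same background, 5 of 13 arrest genes rose and 4 fell, and 0 of 7 tested death genes rose and 4 fell, a list too short to read a direction from. Of 5 repair and nucleotide supply genes 1 rose, namely Ercc5 of nucleotide excision repair (log2 fold change 0.24 with an edgeR adjusted p = 0.00194), and of 8 metabolism and stress genes 1 rose and 1 fell. The difference between the roles was not tested.

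Among the arrest genes, Cdkn1a, the gene of the cyclin-dependent kinase inhibitor p21, had 25.3, 26.9, 23.3 and 24.0 CPM in DS38 libraries, against 37.4, 45.1, 41.0 and 39.9 CPM in DMSO libraries. It is the only one of the 29 other targets with a RefSeq window in which an exact full p53 element was found. That match has a spacer between its decamers, and sequence outside the windows was not searched. The polo-like kinase gene Plk2 was far scarcer and went the other way, with 3.22, 4.095, 2.77 and 5.10 CPM in DS38 libraries, against 1.44, 1.61, 1.31 and 1.53 CPM in DMSO libraries (log2 fold change 1.36 ± 0.20 SE, edgeR adjusted p = 2.7e-05). Its relative Plk3 (log2 fold change -0.57) and the phosphatase gene Ptp4a3 (-0.47) fell. Among the death genes, the falls were those of Bbc3 (log2 fold change -0.61), Pidd1 (-0.41), Bax (-0.24) and Ei24 (-0.23). The Bax call was lost when DS38 replicate 2 or 3 was left out (edgeR adjusted p = 0.0675 and 0.0773), and likewise for DMSO replicate 1 or 2 (0.0776 and 0.0791). With library totals alone the Bax call was lost as well (log2 fold change -0.174, edgeR adjusted p = 0.0892). The same held without both libraries numbered 1 (-0.199, edgeR adjusted p = 0.0535). In the metabolism and stress list Sesn2, which restrains the growth kinase mTORC1 and is also an Atf4 target, fell (log2 fold change -0.96), and Dglucy rose (0.42). The Dglucy call was lost when DS38 replicate 2 (edgeR adjusted p = 0.0576) or DMSO replicate 2 (0.0614) was left out. The scarce targets Fas, Tnfrsf10b and Gdf15 were under the filter, with 2, 29 and 9 counts over the DS38 libraries and 0, 23 and 61 counts over the DMSO libraries, where the 0 counts of Fas allow up to 3 counts, counting error only.

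**Figure D4:**
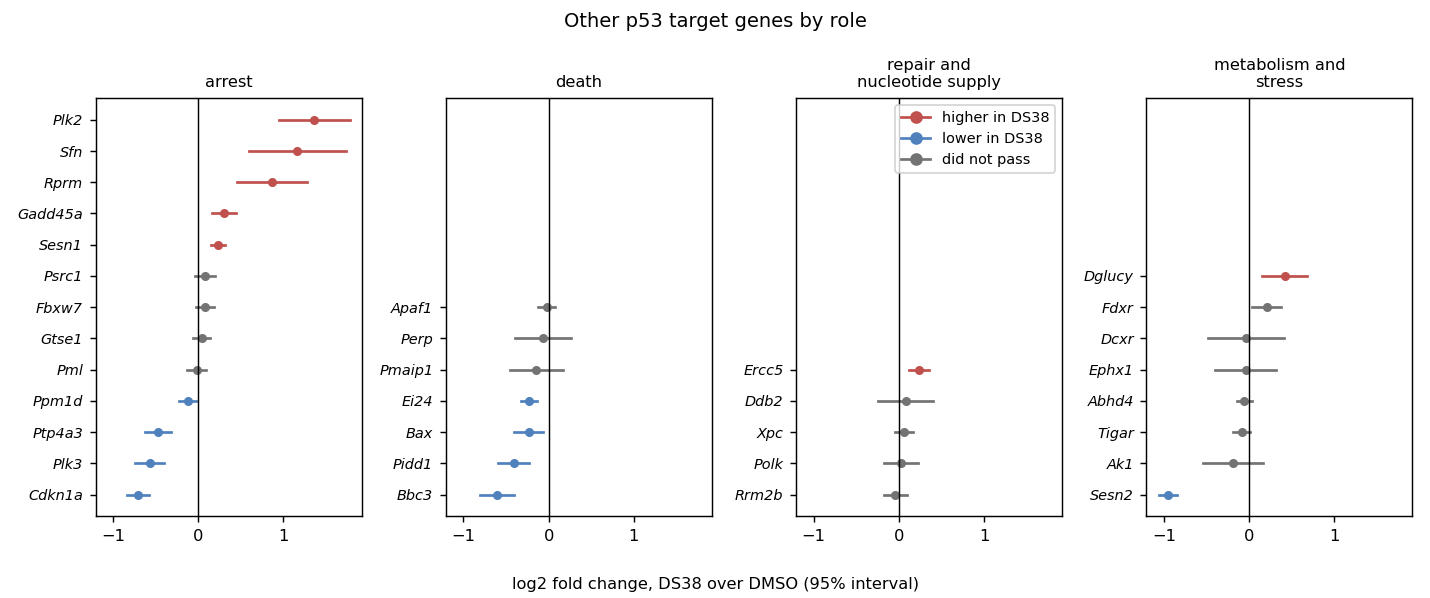
Log2 fold change of DS38 over DMSO (x axis) with 95% intervals for the 33 tested targets outside the 10 genes, in 1 panel per role. The 4 death genes that passed lie under 0, between -0.61 and -0.23, while the arrest genes spread from Cdkn1a at -0.71 to Plk2 at 1.36.

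Regulators and partners of p53 and genes downstream of p21 were counted in the same way. The 20 regulators and partners tested held 4 rises, 3 falls and 13 genes that missed the threshold, a share called that is near the 39.5% over all genes tested, with a median log2 fold change of 0.0005. The ribosomal protein gene Rpl5, whose product can bind and inhibit Mdm2, fell (log2 fold change -0.47), as did Cop1, a ubiquitin ligase gene for p53 (-0.23). The p53-binding protein gene Trp53bp1 (log2 fold change 0.40) and the acetyltransferase gene Crebbp (0.27) rose, all 4 with edgeR adjusted p-values of at most 0.000294. The p53 relative Trp63 was under the filter. Of 15 genes that p21 and the DREAM repressor complex are known to lower, 6 rose, 6 fell and 3 did not pass (median log2 fold change 0.05). These are more calls than the 39.5% over all genes tested, in equal numbers up and down. That 39.5% includes scarce genes, and the 15 genes were not set beside genes of like level. Falls included Chek1, a checkpoint kinase gene (log2 fold change -0.57), and Cdk1, which drives entry into mitosis (-0.33), and the mitotic cyclin genes Ccnb1 (0.28) and Ccnb2 (0.30) rose.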

How the data were processed

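RNA sequencing of 4 DS-1-38 and 4 DMSO samples of MB21 was used. As deposited, the values are raw read counts in whole numbers for each gene, beside a gene length in bases, per the file headers. STAR 2.7.9a, featureCounts, Subread 2.0.3, R 4.1.0, edgeR, and as builds GRCm39 and GRCh38.p13, are named without roles in the submitters' processing notes; no source used here gives the strand setting or the treatment of multiply mapped reads. In GENCODE vM21, an annotation of an earlier build used for names, 52083 of 55416 identifiers had a symbol, all 127 list genes among them, and 0 of the 10 genes shared exonic bases with another gene.

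The test was that of edgeR 4.0.16 under R 4.3.3 (quasi-likelihood, robust, TMM factors, filterByExpr with a minimum of 10 counts), with Benjamini-Hochberg adjustment over 15133 genes. Genes with an adjusted p under 0.05 were called. Each SE was obtained by dividing the log2 fold change by the root of F, and 95% intervals use the test's degrees of freedom and are not adjusted. Summed marker levels use plain library totals. The script was tested on simulated data. The 10 genes and the lists were chosen with earlier results of these data known. Of the other lists, up to 4 tested genes with the smallest p were picked, and those that passed were named. Rrm2b, picked but not passing, was named for its change of sign. Genes outside that rule were named for being under the filter. The alternatives were DESeq2 1.42.0, limma-voom (limma 3.58.1), other scalings and filters, the replicate number as a block, and leaving out libraries. The submitters give no batch.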

Additional observations from a re-analysis of the deposited data

Results flagged for a closer look

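Of 76 groups of 4 libraries examined for a value far from the rest, 2 were flagged, and chance flags about 1 in 20. Trp53 stood at 203 CPM in DS38 replicate 4, against 179 to 181 CPM in the other DS38 libraries. Aen stood at 27.3 CPM in DMSO replicate 4, against 30.6 to 31.2 CPM in the other DMSO libraries. Neither gene passed the test with or without that library.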

How the results depend on the processing

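Eda2r, Trp53inp1, Aen and Phlda3 kept their direction and their side of the threshold in every alternative that gave a value, the filter of 50 counts in 4 libraries leaving Phlda3 untested. For the 10 genes, 1 rose, in place of 2, with DESeq2, without a filter, with the replicate block and without both libraries numbered 1, and 1 to 2 rose when 1 library was left out. The cause is the Ccng1 call, which was lost with a log2 fold change of 0.127 in DESeq2 (adjusted p = 0.0646), 0.109 without a filter (0.17), 0.12 with the replicate block (0.0819) and 0.105 without both libraries numbered 1 (0.149), and ran from 0.105 to 0.14 when 1 library was left out. Btg2 passed with library totals alone (log2 fold change 0.136) and with the filter of 50 counts (0.091). Signs turned near 0: for Trp53 with library totals alone (0.013), for Mdm2 without a filter (-0.00402) and without both libraries numbered 1 (-0.000547), for Mdm4 likewise (-0.00454 and -0.0215), for Zmat3 without both libraries numbered 1 (-0.031) and for Rrm2b with library totals alone (0.0218). When 1 library was left out, Mdm2 ran from -0.00883 to 0.022, Mdm4 from -0.027 to 0.0548 and Zmat3 from -0.0234 to 0.056. Of immediate early genes, 1 rose, in place of 2, in DESeq2, under the filter of 50 counts and without both libraries numbered 1; when 1 library was left out 1 to 2 rose and 3 to 5 fell. Without a spacer, 0 of the other p53 targets had a full element, against 1, and 0.0111% of all genes did. Of all calls 64.3% were rises with library totals alone, against 47.5%. The correlations of same-numbered deviations were 0.331, -0.0699, 0.067 and -0.0816. The libraries numbered 1 correlated best with each other, but not every library correlated best with its own number. Correlations over 4 libraries per group do not settle whether the replicate numbers pair them. With the block 5594 genes were called, against 5980. Phlda3, with 69 counts in DS38 and 51 in DMSO, had the widest interval of the 10 genes. The cause of the other changes was not tested.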
